A study of Mus musculus with 4 samples.

Results

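The apical and basolateral polarity genes comprised 10 genes chosen by symbol from 3 functional groups, namely the PAR-aPKC module with its GTPases (Pard3, Pard6b, Prkci, Prkcz, Cdc42, and Rhoa), the ERM gene Ezr, and the basolateral genes Scrib, Llgl1, and Mark2. All 10 were found among the 20714 gene symbols that both assays list, and no member's symbol was listed more than once. The libraries came from mouse blastocysts of the C57BL/6N x PWK cross, genotype WT and untreated. The protocol in the labels gives the dams as C57BL/6J, 4 weeks old, and the sires as PWK/PhJ. According to the paper, the dams had received the hormones PMSG and hCG so that they would ovulate. For every library, embryos taken at the 8-cell stage had been grown in KSOM medium in vitro to the blastocyst and freed of the zona pellucida. There were 2 RNA-seq libraries (Smart-seq2), which measure the mRNA level, and 2 Ribo-seq libraries, which measure the fragments protected by ribosomes (RPF). The labels do not say whether replicates came from separate cultures, so the p-values here measure only the spread between these libraries. Levels are FPKM, that is, fragments scaled to the length of the gene and to the mapped fragments of the library, counted over the whole transcript for mRNA and over the coding sequence for RPF.

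Outer cells of the blastocyst form the trophectoderm, an epithelium whose cells have an outward apical face and a basolateral face towards their neighbours and the cavity. In epithelia, PAR3 and PAR6 act as scaffolds that bring the atypical protein kinase C (aPKC) to the apical side, where Cdc42 bound to GTP can activate it through PAR6. aPKC phosphorylates LGL and the PAR1 kinases (MARK), which keeps them on the basolateral side, where they act with Scribble and exclude apical proteins. Ezrin, radixin, and moesin (ERM) link the apical membrane to actin, and RhoA controls actomyosin contraction. In the mouse embryo this asymmetry first appears with compaction, and the Hippo pathway reads it when trophectoderm and inner cells separate.

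The libraries were shallow for Ribo-seq. Small FPKM values were mostly multiples of the value that a single fragment would have, which gave implied totals of 5463120 and 5176929 fragments for RNA-seq and 531907 and 480812 for Ribo-seq. For a coding sequence of 1000 bases, 1 footprint was worth 2.35 and 2.60 FPKM in the Ribo-seq replicates. Replicates differed by a median of 0.27 on the log2 scale for mRNA and 0.48 for RPF, over the 8327 genes tested. Of the markers of blastocyst lineages, 7 of 8 for trophectoderm, 6 of 6 for epiblast, and 2 of 5 for primitive endoderm were above 0 in all 4 libraries, and the summed FPKM of the trophectoderm list was 3045 and 2824 for mRNA and 5929 and 5454 for RPF. Markers of cells that could be carried along were at or near 0, with 5 of 7 for oocyte, 6 of 7 for cumulus and granulosa cells, 1 of 4 for oviduct epithelium, and 3 of 4 for blood at 0 in every library. The embryos were lysed whole, so fewer cells of a type and less RNA per cell cannot be told apart.

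Several members belong to families with similar coding sequences, and a footprint of about 28 bases can be assigned to 1 gene only where its bases differ from those of the relatives. The longest stretch that the coding sequences of 2 relatives share is given for the 4 pairs whose levels are compared most closely. The sequences are from GENCODE vM1 on NCBIM37, the assembly of mm9, and run 5′ to 3′ along the mRNA. Capitals mark the shared stretch, and lower case marks the 12 bases on either side. The first pair lies in exon 8 of both genes (Ezr, chr17:6947066-6947097, minus strand; Msn, chrX:93355532-93355563, plus strand) and shares 32 bases.
Ezr: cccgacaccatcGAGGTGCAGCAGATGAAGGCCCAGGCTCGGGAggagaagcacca
Msn: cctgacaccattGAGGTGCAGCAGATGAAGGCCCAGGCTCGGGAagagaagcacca
The second lies in exon 18 of both genes (Mark2, chr19:7351836-7351876, minus strand; Mark3, chr12:112893530-112893570, plus strand) and shares 41 bases.
Mark2: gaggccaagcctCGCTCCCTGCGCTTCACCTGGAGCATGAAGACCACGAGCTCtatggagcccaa
Mark3: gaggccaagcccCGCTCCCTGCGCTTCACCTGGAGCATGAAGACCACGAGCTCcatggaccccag
The third lies in exon 10 of both genes (Prkci, chr3:30937399-30937420, plus strand; Prkcz, chr4:154660938-154660959, minus strand) and shares 22 bases.
Prkci: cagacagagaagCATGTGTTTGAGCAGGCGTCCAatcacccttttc
Prkcz: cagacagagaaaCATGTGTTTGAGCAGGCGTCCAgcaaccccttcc
The last lies in exon 4 of Rhoa (chr9:108233247-108233263, plus strand) and exon 3 of Rhoc (chr3:104595528-104595544, plus strand) and shares 17 bases.
Rhoa: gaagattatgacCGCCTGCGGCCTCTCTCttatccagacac
Rhoc: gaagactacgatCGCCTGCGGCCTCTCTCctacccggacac

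Shared stretches of 28 bases were rare. The Ezr coding sequence held 5 such windows of 1734 that another coding transcript also holds (Msn), and Mark2 held 22 of 2310 (Mark1 and Mark3), whereas the other 8 members held none. The coding sequences of Rhoa and Rhoc are both 582 bases long and had 77.1% of their bases in common, position by position, but never 28 in a row. Copies elsewhere in the genome were more frequent than copies in other coding transcripts. Only 35.9% of the Rhoa windows, 48.0% of the Prkcz windows, and 65.9% of the Cdc42 windows had at most 1 place in the genome, against 97.7% to 100% for the other members. The places numbered at most 9 for Rhoa, 4 for Cdc42, and 2 for Prkcz, under the mapping limit of 20, which 0.0604% of the Scrib windows exceeded, and the effect of these places on the FPKM of the 3 genes was not tested.

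The small GTPases had the highest levels of the members in both assays. Cdc42 (chr4:136875611-136913635, minus strand), which recruits and activates the PAR6-aPKC complex at the apical side, stood at 403 and 432 FPKM in mRNA and 1270 and 1621 FPKM in RPF. Rhoa (chr9:108208536-108240270, plus strand), which drives actomyosin contraction, stood at 147 and 153 FPKM in mRNA and 1224 and 1202 FPKM in RPF. In both assays the lower Cdc42 replicate was above the higher Rhoa replicate, and the SD of Rhoa (n = 2) was 4.34 FPKM for mRNA and 16.2 FPKM for RPF. The ratio of Rhoa to Cdc42 was 0.366 and 0.356 in mRNA and 0.964 and 0.741 in RPF, so the 2 genes were nearer to each other in RPF than in mRNA. Both coding sequences are short, 576 bases for Cdc42 and 582 bases for Rhoa, and the implied footprints were 254 and 293 for Cdc42 and 248 and 220 for Rhoa, the most of any member.

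Among the PAR-aPKC genes, the kinases and Pard6b were above the scaffold Pard3. Prkcz (chr4:154634238-154735470, minus strand), which encodes aPKC zeta, stood at 25.7 and 20.6 FPKM in mRNA and 56.4 and 58.1 FPKM in RPF. Prkci (chr3:30894669-30951663, plus strand), which encodes aPKC iota, stood at 12.2 and 8.71 FPKM in mRNA and 56.6 and 20.8 FPKM in RPF. Pard6b (chr2:167906504-167926703, plus strand), whose protein binds both aPKC and Cdc42, stood at 11.9 and 7.46 FPKM in mRNA and 69.6 and 29.3 FPKM in RPF. For Prkci and Pard6b the first Ribo-seq replicate was more than 2 times the second, with 47.8 and 15.9 footprints for Prkci and 33.9 and 12.9 for Pard6b. Exact Poisson 95% intervals, which cover counting error only, ran from 35.4 to 63.6 and from 9.15 to 26.0 for Prkci and did not overlap. For Pard6b they ran from 23.5 to 47.5 and from 6.92 to 22.2. These counts are not scaled to the implied totals of 531907 and 480812 fragments. The nearest Pard6b limits, 22.2 and 23.5, lie close together, and whether they stay apart after such scaling was not tested. Pard3 (chr8:129587793-130136186, plus strand), the scaffold that places the complex at apical junctions, was the lowest of the module, at 4.67 and 5.98 FPKM in mRNA and 10.1 and 9.43 FPKM in RPF. The RPF of aPKC, summed over Prkci and Prkcz, was 11.2 and 8.37 times that of Pard3, and the same ratio in mRNA was 8.10 and 4.90.

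Ezr (chr17:6942390-6987133, minus strand), which encodes the ERM protein ezrin of microvilli and the apical cortex, stood at 14.9 and 7.70 FPKM in mRNA and 118 and 108 FPKM in RPF. The mRNA replicates of Ezr differed by 0.87 on the log2 scale, more than those of 92.1% of the genes tested, whereas its RPF replicates differed by 0.13. In mRNA the Ezr replicates overlapped those of Prkci and Pard6b, and in RPF both were above all of Prkcz, Pard6b, and Prkci. Its 98.1 and 80.8 footprints made it the member with the most footprints after the GTPases.

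The basolateral genes had the lowest mRNA levels. Llgl1 (chr11:60513225-60527688, plus strand), a substrate that aPKC removes from the apical side, stood at 3.89 and 3.04 FPKM in mRNA and 13.1 and 6.21 FPKM in RPF. Mark2 (chr19:7349886-7416350, minus strand), the mammalian PAR1 kinase known as PAR1b, stood at 2.87 and 1.48 FPKM in mRNA and 21.2 and 22.0 FPKM in RPF. Scrib (chr15:75877588-75900214, minus strand), the scaffold of the basolateral domain, was the lowest member in both assays by mean level, at 0.701 and 0.777 FPKM in mRNA and 7.25 and 7.55 FPKM in RPF. Scrib has a coding sequence of 4998 bases, and this RPF level came from 18.5 and 17.4 footprints. The 3 basolateral genes had 24.1 footprints or fewer in each replicate, down to 8.92 for Llgl1 in replicate 2. All were above the floor of 3 footprints.

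**Figure D1:**
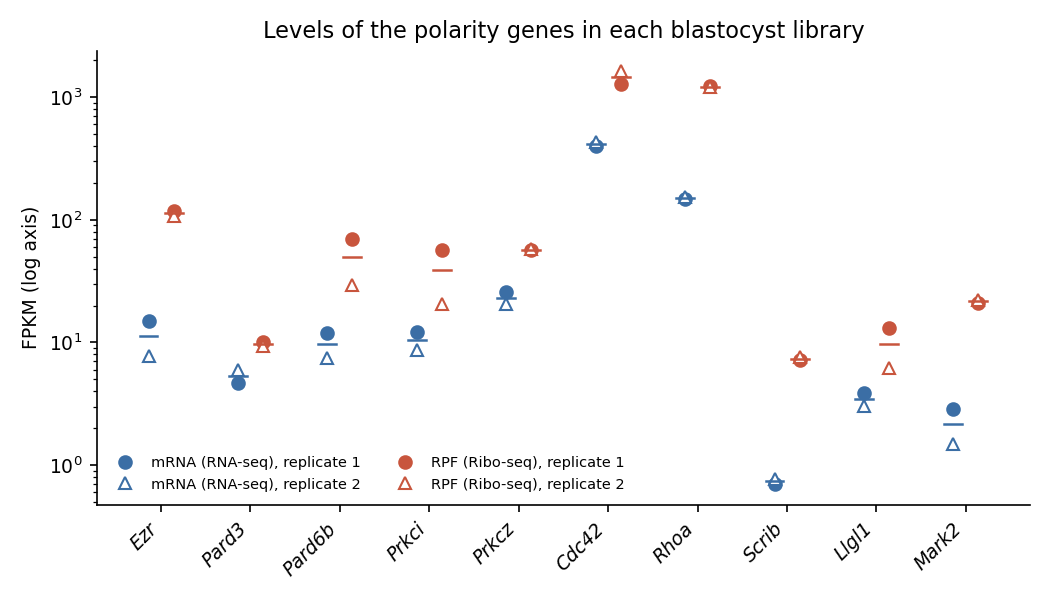
FPKM of the 10 polarity genes in each library on a log axis, with mRNA in blue, RPF in red, replicate 1 as filled circles, replicate 2 as open triangles, and the mean of 2 replicates as a line. Cdc42 and Rhoa lie above 100 FPKM in all 4 libraries, and Scrib is below 1 FPKM in mRNA.

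The order of the members differed between the assays. By mean mRNA level it was Cdc42, Rhoa, Prkcz, Ezr, Prkci, Pard6b, Pard3, Llgl1, Mark2, and Scrib, and the neighbours whose replicates overlapped were Ezr with Prkci and Prkci with Pard6b. By mean RPF level it was Cdc42, Rhoa, Ezr, Prkcz, Pard6b, Prkci, Mark2, Pard3, Llgl1, and Scrib. There the replicates of Prkcz, Pard6b, Prkci, and Mark2 overlapped from each to the next, as did those of Pard3, Llgl1, and Scrib. Mark2 was below Pard3 and Llgl1 in both mRNA replicates and above both genes in both RPF replicates. FPKM divides by an effective length that is shorter than the sequence, which raises short genes, so footprints per 1000 coding bases were also computed. On this scale Cdc42 had 440 and 508, Rhoa 427 and 379, and Ezr 55.7 and 45.9, so the first 3 places kept their order. Scrib, with 3.70 and 3.48, overlapped Llgl1, with 6.55 and 2.80.

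**Figure D2:**
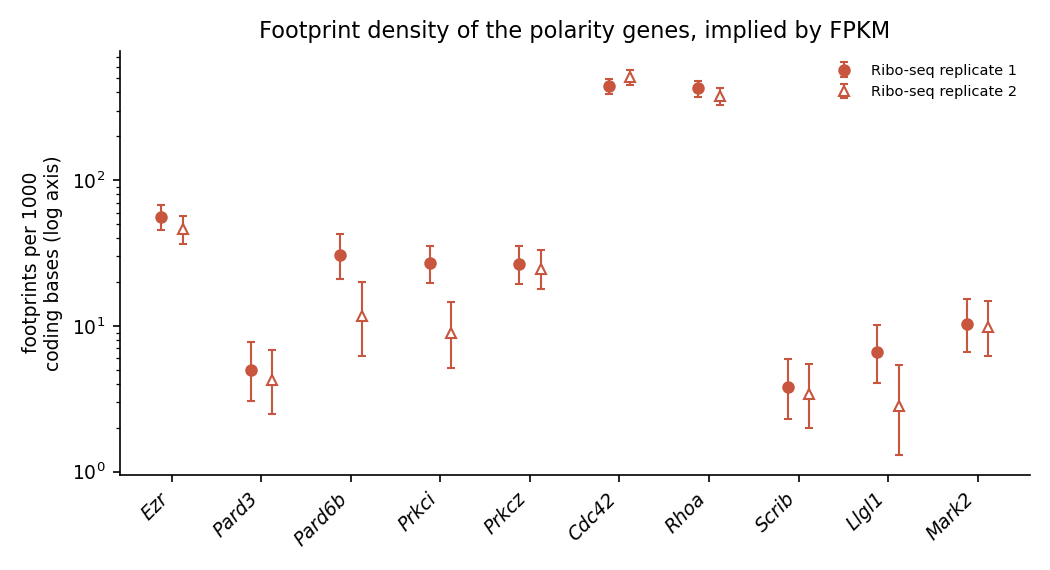
Footprints per 1000 coding bases for each polarity gene in the 2 Ribo-seq replicates on a log axis, with exact Poisson 95% intervals for counting error only. The counts are not scaled to the library totals. As plotted, the intervals of the 2 replicates are separate for Prkci and, narrowly, for Pard6b, and overlap for the other 8 genes.

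The next comparison set RPF against mRNA, the only contrast that these libraries allow. It addresses how much ribosome occupancy a gene had for its mRNA, relative to the other genes. The limma fit used log2(FPKM + 1), with each library centred on its median, for the 8327 genes with a mean of at least 1 FPKM in both assays, and a gene was called at a Benjamini-Hochberg adjusted p under 0.05 and a difference of at least 1. This scale shrinks the differences of genes with a low level, and the median difference of all genes tested was -0.24. The assays also differ in library preparation and in the sequence counted, and these cannot be told apart from the ribosome occupancy.

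Rhoa was the member that passed the test. Its centred mRNA level was 4.04 and 4.09 and its centred RPF level was 5.54 and 5.60, so the assays did not overlap. The difference was 1.50 ± 0.24 (SE, n = 2 libraries per assay; limma adjusted p = 0.0386), with a 95% interval from 0.85 to 2.15. The call is near the threshold, since the limma adjusted p was 0.0601 with a pseudocount of 0.1, 0.0539 with no filter on low values, and 0.0567 with quantile normalization. It was 0.0159 when only genes of at least 5 FPKM were tested. Without RNA-seq replicate 1 and without RNA-seq replicate 2 the difference was 1.48 and 1.525. Without Ribo-seq replicate 1 and without Ribo-seq replicate 2 it was 1.53 and 1.47. Such a fit leaves an assay with no replicate, so only the difference is given here. With RPF counted per coding length, an alternative chosen after seeing the data, the difference was 1.18 with an adjusted p of 0.0490.

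Ezr had a larger difference than Rhoa and Mark2 a smaller one, and neither passed. For Ezr the centred mRNA level was 0.83 and -0.06 and the centred RPF level was 2.18 and 2.13, and the difference was 1.77 ± 0.39 (SE; limma adjusted p = 0.0606). For Mark2 the centred mRNA level was -1.22 and -1.87 and the centred RPF level was -0.25 and -0.11, and the difference was 1.36 ± 0.33 (SE; limma adjusted p = 0.0704). In both genes the RPF replicates were above the mRNA replicates, and the mRNA replicates were the ones that lay apart. Ezr passed when only the 5083 genes of at least 5 FPKM were tested, with an adjusted p of 0.0348 from limma. Mark2 did not meet this filter. Leaving out Ribo-seq replicate 1 gave differences of 1.75 for Ezr and 1.43 for Mark2, and leaving out replicate 2 gave 1.795 and 1.30. Leaving out RNA-seq replicate 1 gave 2.21 and 1.69, and leaving out RNA-seq replicate 2 gave 1.33 and 1.04. Each such fit leaves 1 library in an assay, which is assumed to vary like the other assay. Whether both genes passed depended on the assay left out.

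The kinases and scaffolds of the PAR-aPKC module (Pard6b, Prkci, Prkcz, and Pard3) did not pass in either direction. Pard6b had a difference of 0.65 ± 0.51 and Prkci of 0.14 ± 0.54 (SE), with limma 95% intervals from -0.76 to 2.05 and from -1.35 to 1.64. These intervals include both no difference and one of the size seen for Rhoa. Without Ribo-seq replicate 2, Pard6b had a difference of 1.21, and without Ribo-seq replicate 1 its difference was 0.08. For Prkci the difference was -0.51 without Ribo-seq replicate 1, and -0.08 without RNA-seq replicate 2, the direction opposite to that with all libraries. Prkcz had a difference of -0.22 ± 0.26 (SE), with centred levels of 1.57 and 1.25 in mRNA and 1.13 and 1.25 in RPF. Pard3 had the lowest difference of the members, -0.73 ± 0.26 (SE; limma adjusted p = 0.129), and its RPF replicates, at -1.25 both, were below its mRNA replicates, at -0.66 and -0.38.

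Cdc42 and Llgl1 lay between the 25th and 75th percentiles of all genes, as did Pard3, Prkci, and Prkcz. The difference of Cdc42 was 0.28 ± 0.28 (SE; limma adjusted p = 0.510), with a 95% interval from -0.50 to 1.05, and its sign turned to -0.12 with quantile normalization and -0.05 with RPF per coding length. Cdc42 had the highest RPF level of the members, and 67.6% of the genes tested had a lower difference between RPF and mRNA. Llgl1 had a difference of -0.32 ± 0.40 (SE; limma adjusted p = 0.596), and its sign turned to 0.13 without Ribo-seq replicate 2. Scrib was not tested because its mean mRNA level was under 1 FPKM. With no filter on low values, its difference was 0.83 ± 0.27 (SE; limma adjusted p = 0.124, over 10546 genes).

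**Figure D3:**
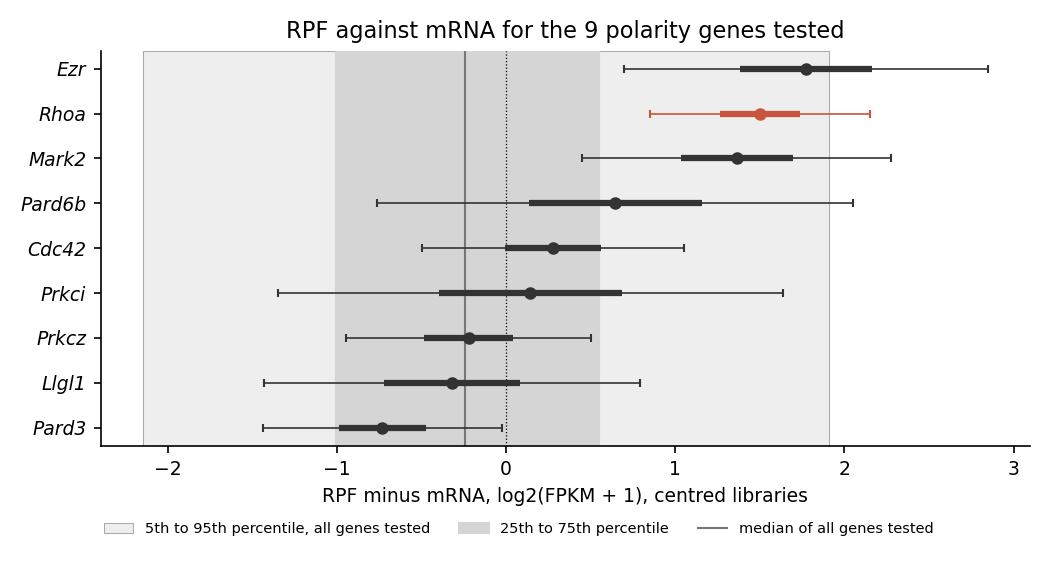
RPF minus mRNA on the centred log2(FPKM + 1) scale for the 9 polarity genes tested, with thick bars for the SE and thin bars for the limma 95% interval. The grey bands give the 5th to 95th and 25th to 75th percentiles of all 8327 genes. Ezr, Rhoa, Mark2, and Pard6b lie above the inner band, and Rhoa in red is the gene that passed.

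Of the 9 members tested, 1 was called higher in RPF and 0 were called lower, whereas 6.65% of all genes tested were called higher and 5.31% lower. At an unadjusted limma p under 0.05, 4 members differed, of which Ezr, Rhoa, and Mark2 were higher and Pard3 was lower, where the share of all genes tested was 36.3%. Both RPF replicates were above both mRNA replicates in 4 members (Ezr, Cdc42, Rhoa, and Mark2) and below them in 1 (Pard3), where the shares of all genes were 28.8% and 38.7%. The median difference of the members was 0.28. The number of members called changed with the scale. It was 0 with a pseudocount of 0.1, no filter, and quantile normalization, where 308, 427, and 618 of all genes were called higher. It also changed with the libraries, but a fit without 1 library leaves an assay with no replicate. With no centring, the RPF scale as a whole was higher, the median of all genes moved to 1.26, and 6 members were called higher. Relative to that median, Prkcz (1.28) lay close to it and Pard3 (0.77) and Llgl1 (1.18) below it, although all 3 were then above 0. Over all genes the calls were 554 higher and 442 lower, against 4113 and 65 with no centring and 476 and 570 with RPF per coding length.

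Within families, the ratio of a member to its relatives in the same library does not depend on how the libraries are scaled. With 2 libraries per assay, an exact permutation test cannot go below p = 0.333, so the shares below are descriptions without a test. Ezr was a minor ERM gene in mRNA, with 16.3% and 9.53% of the summed FPKM of Ezr, Rdx, and Msn, and it held 28.2% and 25.7% in RPF. Msn, which encodes moesin, held 68.7% and 76.7% in mRNA and 58.5% and 64.2% in RPF, the most in each library. Rdx, which encodes radixin, held 15.05% and 13.7% in mRNA and 13.3% and 10.1% in RPF. The share of Ezr was higher in both RPF libraries than in both mRNA libraries, and that of Msn was lower.

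Rhoa made up most of the summed level of Rhoa, Rhob, and Rhoc in mRNA and more of it in RPF. It held 68.4% and 67.3% of the summed mRNA FPKM of Rhoa, Rhob, and Rhoc, and 87.7% and 86.2% of the RPF. Rhoc, which encodes a close relative of RhoA, held 31.1% and 32.2% in mRNA and 10.6% and 11.1% in RPF. The ratio of Rhoa to Rhoc was 2.199 and 2.09 in mRNA and 8.26 and 7.74 in RPF. Because both coding sequences have the same length, the effective length does not enter the RPF ratio. The genes differ in their copies elsewhere in the genome, however. Only 35.9% of the Rhoa windows had at most 1 place in the genome, against 100% of the Rhoc windows. The effect of these copies on the ratio in either assay was not tested. The Rhoc difference was -0.40 ± 0.24 (SE; limma adjusted p = 0.303).

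Mark3 held 67.2% and 71.4% of the summed mRNA FPKM of Mark1 to Mark4, and Mark2 held 23.1% and 13.6%. In RPF, Mark2 held 38.7% and 47.4% and Mark3 held 43.1% and 33.5%, so neither led in both replicates. Mark4 had 3.95% and 12.1% in mRNA and 18.3% and 15.1% in RPF, and Mark1 had 5.79% and 2.87% in mRNA and 0% and 4.06% in RPF. These RPF shares rest on few footprints, namely 25.9 and 15.4 for Mark3, 10.9 and 6.94 for Mark4, and 0 and 1.98 for Mark1, the last under the floor of 3 footprints.

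Pard6b held 72.9% and 92.7% of the Pard6 mRNA and 87.4% and 76.9% of the RPF, while Pard6a and Pard6g were under 3 footprints in each replicate. Pard3b was listed at 0 in all 4 libraries, so Pard3 was the PAR3 gene detected here. Prkcz held 67.8% and 70.3% of the aPKC mRNA, and its RPF share was 49.9% in replicate 1 and 73.6% in replicate 2, where Prkci had fewer footprints. Llgl2, a relative of Llgl1, held 71.4% and 79.98% of the Llgl mRNA and 76.2% and 85.6% of the RPF. Cdc42 held 78.4% and 81.6% of the mRNA of Cdc42 and Rac1, and 74.8% and 80.9% of the RPF.

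**Figure D4:**
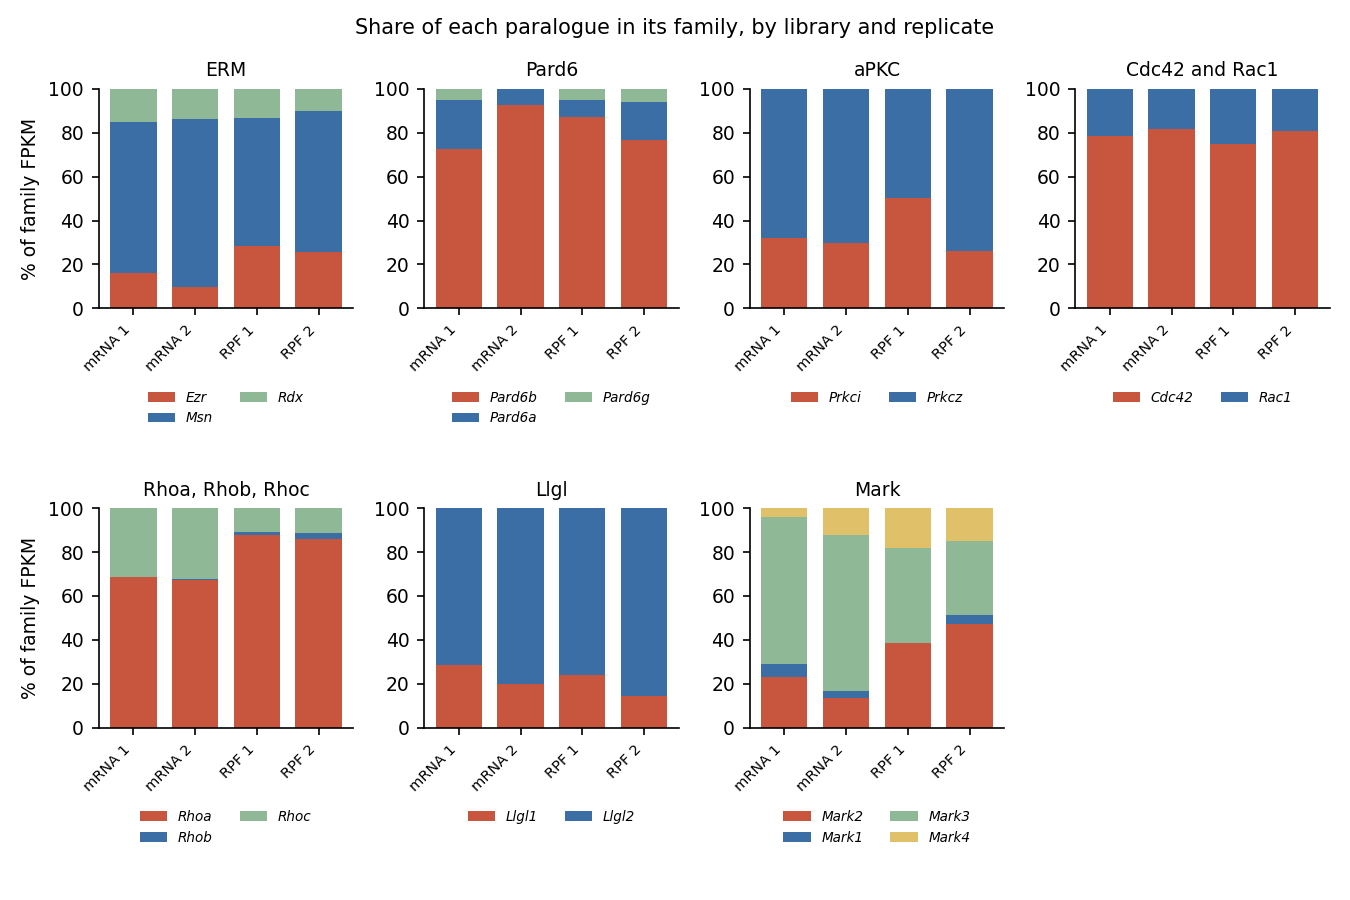
Share of each paralogue in the summed FPKM of its family, in percent, for each of the 2 mRNA and 2 RPF libraries, in 7 families. The red part, which is Rhoa among Rhoa, Rhob, and Rhoc and Mark2 in the Mark family, is larger in both RPF libraries than in both mRNA libraries for these families and for Ezr in the ERM family.

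A wider list of 43 genes of the polarity pathway was then described in the same fit. Of these, 30 had a mean of at least 1 FPKM in both assays and were tested, 5 were called higher in RPF, and 0 were called lower, against 6.65% and 5.31% of all genes. At an unadjusted limma p under 0.05, 8 of the 30 differed, where the share of all genes was 36.3%. The median difference of the 30 was -0.11, and 14 of them were above 0, as were 41.7% of all genes. Both RPF replicates were above both mRNA replicates in 11 and below them in 10, against 28.8% and 38.7% of all genes.

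The genes called higher were a Crumbs complex scaffold, a GTPase, a GTPase effector, a GTPase inhibitor, and a 14-3-3 gene. Lin7c, a scaffold that binds the Crumbs complex protein PALS1, stood at 21.5 and 23.5 FPKM in mRNA and 263 and 232 FPKM in RPF, with a difference of 1.90 ± 0.24 (SE; limma adjusted p = 0.0298). Pak2, a kinase activated by Cdc42 and Rac, stood at 11.9 and 10.7 FPKM in mRNA and 113 and 117 FPKM in RPF, with a difference of 1.74 ± 0.25 (SE; limma adjusted p = 0.0342). In both genes the RPF replicates were close to each other and far above the mRNA replicates. Arhgdia, which encodes an inhibitor that keeps small GTPases soluble, stood at 56.8 and 64.7 FPKM in mRNA and 536 and 428 FPKM in RPF, with a difference of 1.46 ± 0.26 (SE). Ywhab, a 14-3-3 protein of the kind that binds phosphorylated PAR proteins, stood at 62.8 and 66.2 FPKM in mRNA and 486 and 431 FPKM in RPF, with a difference of 1.31 ± 0.24 (SE). The adjusted p of limma was 0.0452 for Arhgdia and 0.0472 for Ywhab. Rhob, an endosomal relative of RhoA, had the largest difference of the list, 2.39 ± 0.34 (SE; limma adjusted p = 0.0351), but its mRNA level was 0.937 and 1.26 FPKM and its RPF level came from 5.01 and 6.99 footprints. All 5 lost the call without RNA-seq replicate 1 and without RNA-seq replicate 2, where 0 genes of the whole table passed. Arhgdia and Ywhab also lost it with a pseudocount of 0.1, no filter, quantile normalization, and RPF per coding length, and Pak2 lost it with the pseudocount of 0.1.

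By role, 1 of 4 tested genes of the Crumbs complex, 3 of 11 small GTPases and effectors, and 1 of 9 genes of the lateral and basal domain were called higher, and 0 of 5 ERM proteins and partners and 0 of 1 PAR complex genes were. The share of all genes called higher was 6.65%. The gene with the highest mRNA level was called in none of these groups. In the Crumbs complex this was Crb3, the small Crumbs protein of epithelia, at 22.1 and 26.1 FPKM in mRNA and 62.0 and 41.0 FPKM in RPF. Its RPF level came from only 5.09 and 3.04 footprints, the second at the floor of 3 footprints. Among the ERM genes it was Msn, at 63.0 and 62.0 FPKM in mRNA and 245 and 270 FPKM in RPF. Rac1, which drives branched actin, led the GTPases of the list at 111 and 97.5 FPKM in mRNA and 427 and 381 FPKM in RPF. Ywhaz, another 14-3-3 gene, had 654 and 540 FPKM in mRNA and 1581 and 1317 FPKM in RPF, above Cdc42 in both mRNA replicates. Only 10.1% of the Ywhaz windows and 68.5% of the Rac1 windows had at most 1 place in the genome. The effect of the other places on the FPKM of these genes was not tested.

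**Figure D5:**
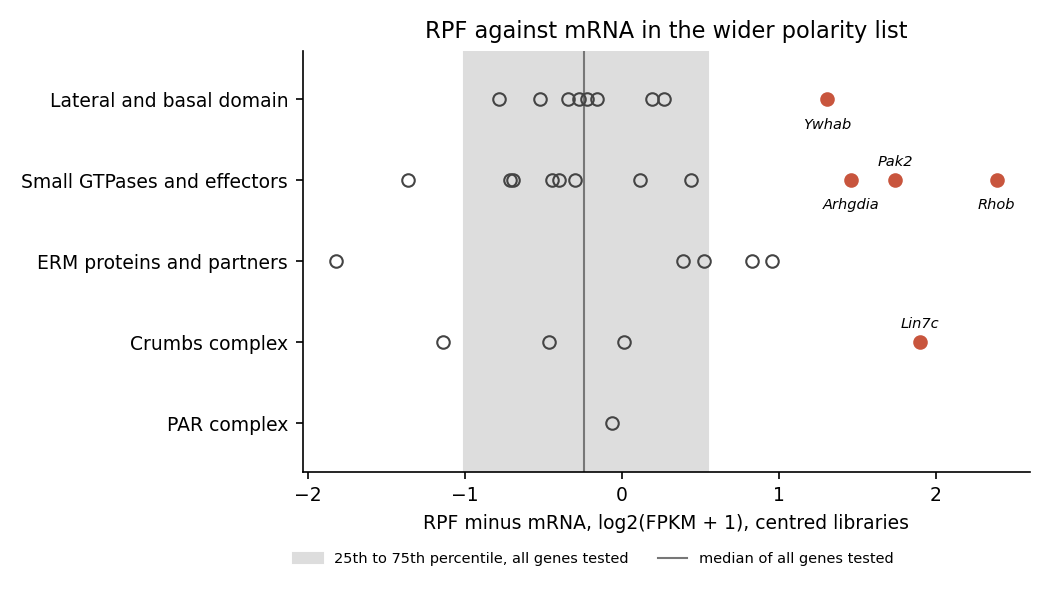
RPF minus mRNA on the centred log2(FPKM + 1) scale for the 30 tested genes of the wider polarity list, 1 circle per gene, by role. The grey band gives the 25th to 75th percentile of all 8327 genes, and the 5 filled red circles, between 1.31 and 2.39, are the genes that passed.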

How the data were processed

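Levels of 10 polarity genes were taken from 2 RNA-seq and 2 Ribo-seq libraries of mouse blastocysts. The authors deposited FPKM values per gene, computed with Cufflinks 2.2.1 on mm9 over transcripts for RNA-seq and over refFlat coding sequences for Ribo-seq. Reads had been trimmed (Trim Galore 0.4.2 or cutadapt 1.14), rRNA reads discarded in Ribo-seq with Bowtie2 2.2.2, and the rest mapped with STAR 2.5.3a, with at most 20 places per read and, in Ribo-seq, 2 mismatches; tool versions are from the submitters' processing notes. Reads with several places can raise or lower genes with copies.

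Where a file repeats a symbol, the highest of its FPKM values was kept. RPF and mRNA were compared with limma 3.58.1 (R 4.3.3) on log2(FPKM + 1), each library centred on its median over the 8327 genes with a mean of at least 1 FPKM in both assays, and p-values were adjusted over all of them by the Benjamini-Hochberg method. No member was tested by its list alone. Implied fragments assume the fragment lengths that Cufflinks uses by default (mean 200, SD 80 bases) and the longest GENCODE vM1 coding sequence, so they are estimates. For 87.2% and 87.4% of the Ribo-seq values of 1 to 10 fragments, the result was within 0.1 of a whole number, and for 63.3% and 62.8% of those of RNA-seq. Windows of 28 bases were counted on both strands of NCBIM37 and in GENCODE vM1 coding transcripts. All other steps used Python 3.11.15, numpy 2.4.6, scipy 1.17.1, pandas 2.3.3, and matplotlib 3.10.9. The fit, the window counts, and the depth estimate were tested on simulated data.

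The members, the families, and the wider list were chosen with earlier results of these data known. Named genes were the members, their paralogues, every gene of the wider list that was called, and the gene with the highest mean mRNA level of each role. The wider list gives 2 genes by the newer symbols that the files use (Patj and Erbin). Alternatives were the pseudocount, the filter, quantile normalization, no centring, summed FPKM for repeated symbols, a replicate block, and fits that leave out 1 library at a time. RPF per coding length was added after the data were seen. The replicate numbers come from the sample titles. Protein sequences were not used here.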

Additional observations from a re-analysis of the deposited data

How the results depend on the processing

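The comparison called 554 genes higher and 442 lower, with 1 member higher and 0 lower, and 5 genes of the wider list higher and 0 lower. With a pseudocount of 0.1 the calls were 308 higher and 154 lower, 0 members, and 2 wider-list genes. With no filter on low values they were 427 higher and 199 lower over 10546 genes, 0 members, and 3 wider-list genes. Testing only genes of at least 5 FPKM gave 620 higher and 751 lower over 5083 genes. There, 2 members (Ezr and Rhoa) and 4 wider-list genes were called higher, and 1 wider-list gene was called lower. Scrib, Llgl1, and Mark2 had lower mRNA levels and were not tested under this filter. With quantile normalization there were 618 higher and 574 lower, 0 members, and 3 wider-list genes. With no centring there were 4113 higher and 65 lower, 6 members, and 19 wider-list genes, and the share of higher calls rose because the median difference of all genes moved from -0.24 to 1.26. With RPF per coding length, chosen after seeing the data, there were 476 higher and 570 lower over 7429 genes, 1 member, and 3 wider-list genes.

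The replicate numbers are shared by the assays, but libraries with the same number did not deviate together (r = 0.00994 across 8327 genes, 2 pairs), so they were not taken as pairs. With the replicate block, limma called 0 genes higher and 0 lower, 0 members, and 0 wider-list genes, while 2594 genes had an unadjusted p under 0.05 (3026 without the block), and this fit has fewer residual degrees of freedom. Its adjusted p was 0.111 for Rhoa, 0.114 for Ezr, and 0.132 for Mark2, and it lay between 0.106 and 0.116 for the 5 wider-list genes.

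Leaving out each library in turn moved the counts between 0 and 1268 for higher calls, 0 and 1987 for lower calls, 0 and 4 for members higher, 0 and 6 for wider-list genes higher, and 0 and 3 for wider-list genes lower. The 0 counts came without RNA-seq replicate 1 or 2, where 1293 and 1250 genes had an unadjusted p under 0.05, and the high counts came without a Ribo-seq replicate. The lone library of an assay is then assumed to vary like the other assay, whose replicates are closer together for mRNA than for RPF.

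Of the members' differences, Ezr, Pard6b, Rhoa, and Mark2 kept their direction under every alternative that gave a value. Signs changed with no centring for Pard3 (0.77), Prkcz (1.28), and Llgl1 (1.18), with quantile normalization and RPF per coding length for Cdc42 (-0.12 and -0.047), and with a library left out for Prkci (range -0.51 to 0.80) and Llgl1 (-0.76 to 0.13). Ribo-seq depth limits Llgl1, Scrib, Pard3, and Mark2, which had at most 24.1 footprints per replicate.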

Other observations

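Some genes of the wider list lay at the low end of the comparison of RPF with mRNA, and they were chosen here after their values were seen. Nf2, which encodes merlin, a relative of the ERM proteins that acts upstream of Hippo signalling, had 9.002 and 8.19 FPKM in mRNA and 14.3 and 2.86 FPKM in RPF, from 12.1 and 2.19 footprints. Its difference was -1.82 ± 0.71 (SE; limma adjusted p = 0.155), and it did not pass. Rock1, which encodes a kinase of actomyosin contraction, had 5.89 and 4.49 FPKM in mRNA and 7.74 and 4.26 FPKM in RPF, from 15.9 and 7.92 footprints. The difference of Rock1 was -1.36 ± 0.35 (SE; limma adjusted p = 0.0768). It was called lower when only genes of at least 5 FPKM were tested, where 751 of 5083 genes were called lower. Rock1 thus lay on the other side of the median of all genes from Rhoa, whose protein activates it. Crb1, Crb2, Lin7a, and Pard3b were listed at 0 in all 4 libraries.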
